A study of Mus musculus with 12 samples.

Results

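The cytochrome P450 genes (Cyp genes) of the mouse were examined for binding of the glucocorticoid receptor (GR) in BWTG3 cells, a mouse hepatoma line. The members were the 93 protein-coding genes, of 21883 in the mm10 gene table, whose symbol has the form of a P450 family name. GR binding sites were linked to them where the centre of the site lay inside the gene span or within 50 kb of it. Of the 47493 regions that held a GR peak in any library, 189 met this rule, and each was counted once.

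GR was mapped by chromatin immunoprecipitation and sequencing in 11 libraries. All cells were kept in serum-free medium for 24 h. The 3 libraries labelled NI were taken as cells given neither agent, because the label names none. The 3 DEX libraries came from cells given 1 µM dexamethasone (Dex), a synthetic glucocorticoid. The 2 TNF libraries came from cells given tumour necrosis factor (TNF), an inflammatory cytokine, at 1000 U/ml. The 3 TNFDEX libraries came from cells given TNF 1 h before Dex. Stimulation lasted 3 h in total in the DEX, TNF and TNFDEX libraries. How much of it was with Dex in TNFDEX is not stated, so TNFDEX and DEX may also differ in the time with Dex. BWTG3 is a single tumour line, so its chromatin stands for neither normal hepatocytes nor liver. GR was measured and gene expression was not, so the liver identity of the cells could not be checked at the RNA level. Sites within 50 kb in at least 2 DEX libraries lay at 7 of 7 hepatocyte marker genes, 4 of 4 macrophage marker genes and 3 of 4 stromal or endothelial marker genes, so such sites do not tell these cell types apart.

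P450 enzymes are haem proteins that oxidise small molecules, and the liver is their main site. Families 1 to 3 handle drugs and other foreign compounds, family 4 oxidises fatty acids, and other members make or break down bile acids, steroid hormones, vitamin D and retinoic acid. Glucocorticoids bind GR, which then binds DNA, most directly at an inverted repeat with the sequence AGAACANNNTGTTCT. In liver, GR acts on P450 genes both directly and through other nuclear receptors, among them those encoded by Nr1i2 (PXR) and Nr1i3 (CAR).

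Of the 62 sites called in at least 2 libraries of a group, 5 overlapped the 250 bases before a RefSeq transcription start, and 3 of these starts belonged to a Cyp gene. That is 8.06% of these P450 sites, against 5.97% of the 13803 regions of the series called in at least 2 libraries of a group. The 4 stretches below show the 3 Cyp promoters and that of F11, the coagulation factor XI gene, which lies under the Dex-dependent site linked to Cyp4v3. Each is the 250 bases before the start, 5′ to 3′ on the strand of the gene (RefSeq, GRCm38.p6), and capitals mark the bases inside the merged GR region. They were read at chr19:40187287-40187536 (minus strand) for Cyp2c70, chr5:137921620-137921869 (minus) for Cyp3a13, chr7:27153464-27153713 (plus) for Cyp2t4 and chr8:45262032-45262281 (minus) for F11.
Cyp2c70: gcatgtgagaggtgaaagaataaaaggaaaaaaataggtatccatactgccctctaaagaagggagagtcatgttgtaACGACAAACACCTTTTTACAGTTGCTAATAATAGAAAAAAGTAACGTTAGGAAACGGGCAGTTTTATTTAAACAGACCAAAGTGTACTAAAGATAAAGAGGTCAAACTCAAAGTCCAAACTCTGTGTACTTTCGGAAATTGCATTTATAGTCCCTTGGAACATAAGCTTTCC
Cyp3a13: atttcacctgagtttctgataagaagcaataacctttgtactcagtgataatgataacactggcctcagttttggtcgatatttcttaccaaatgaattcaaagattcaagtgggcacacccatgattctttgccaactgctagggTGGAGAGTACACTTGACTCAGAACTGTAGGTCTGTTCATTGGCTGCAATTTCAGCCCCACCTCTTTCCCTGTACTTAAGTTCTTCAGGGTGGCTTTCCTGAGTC
Cyp2t4: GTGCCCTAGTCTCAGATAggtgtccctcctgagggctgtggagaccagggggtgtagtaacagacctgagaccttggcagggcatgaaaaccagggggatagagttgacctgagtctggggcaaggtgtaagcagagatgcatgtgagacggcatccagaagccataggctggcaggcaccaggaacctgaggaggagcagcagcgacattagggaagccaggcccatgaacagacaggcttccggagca
F11: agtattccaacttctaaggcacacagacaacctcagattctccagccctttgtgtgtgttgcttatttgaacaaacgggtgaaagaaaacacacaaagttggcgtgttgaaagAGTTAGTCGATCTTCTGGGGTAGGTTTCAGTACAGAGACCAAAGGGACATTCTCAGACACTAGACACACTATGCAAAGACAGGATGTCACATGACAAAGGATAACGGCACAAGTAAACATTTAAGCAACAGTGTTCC
The GR region covered 172 of the 250 bases at Cyp2c70, 104 at Cyp3a13, 18 at Cyp2t4 and 137 at F11. The full element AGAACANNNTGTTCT was found in none of the 4 stretches, and on either strand in 0.00913% of the 32851 RefSeq promoters read over the same 250 bases. Its core, ACANNNTGT, was found once, in F11, as ACAGGATGT inside the GR region with its first base 59 bases before the start. That core stood in 5.84% of all promoters and in 13.3% of 83 promoters of 73 Cyp genes, counting both strands. A match to these letters is a description of the sequence and not a measured contact.

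Every library held GR sites near P450 genes, and the number was larger in the DEX than in the NI libraries. The NI libraries held 24, 28 and 8 sites, the DEX libraries 42, 56 and 58, the TNF libraries 40 and 23, and the TNFDEX libraries 93, 33 and 54. The ranges of NI and DEX did not overlap, while TNF and TNFDEX overlapped between 33 and 40. These sites made up 0.396% ± 0.0688 (SD, n = 3) of the regions of an NI library, 0.426% ± 0.0237 (n = 3) in DEX, 0.502% ± 0.0771 (n = 2) in TNF and 0.393% ± 0.0165 (n = 3) in TNFDEX. The number of P450 sites thus followed the length of each peak list, and their share of the list lay between 0.317% and 0.557% in all 11 libraries.

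**Figure D1:**
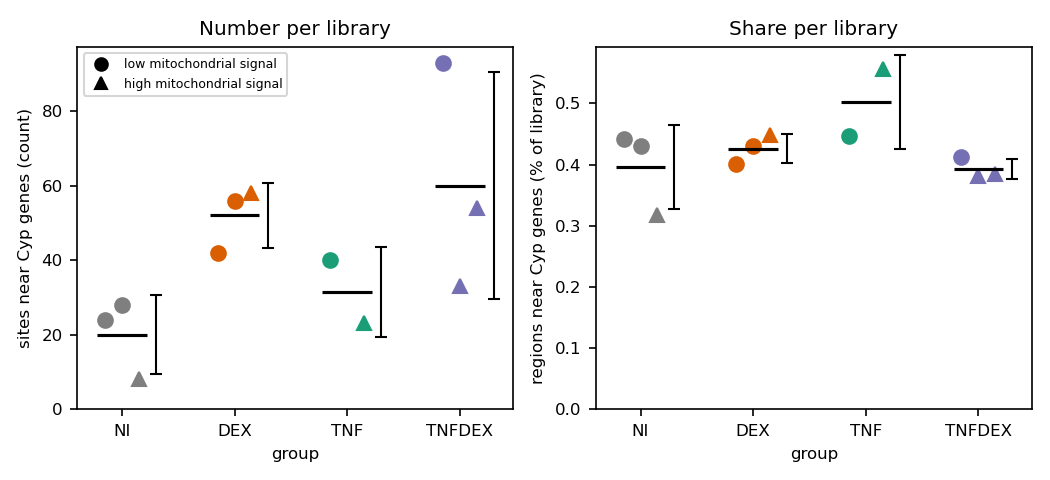
Sites near Cyp genes in each library (left, count) and as a share of the library's GR regions (right, percent), by group. Circles are libraries with low and triangles with high mitochondrial signal, horizontal lines are group means and error bars are SD over 3 libraries (2 for TNF). The counts of DEX (42 to 58) lie above those of NI (8 to 28), and the shares overlap.

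Depth was 39228805 to 51141996 tags per library. The TNFDEX libraries were the deepest, with 48225044, 51141996 and 48641690, and the part of depth in the calls was not tested. Signal is given throughout as the authors' normalized tag count, scaled to 20000000 tags per library. Where a list has no peak the level is unknown and not 0; the lowest value called in a library was 5.4 to 6.6. The libraries differed in the share of tags in peaks on mitochondrial DNA, which was 0.0064% to 0.0348% in 6 libraries (NI 1, NI 2, DEX 1, DEX 2, TNF 1, TNFDEX 1) and 0.3549% to 0.5408% in the other 5. No label names this split. Within the low libraries the P450 sites numbered 24 and 28 in NI against 42 and 56 in DEX, and within the high ones 8 in NI against 58 in DEX.

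By gene, 30 of 93 Cyp genes (32.26%) had a site called in at least 2 DEX libraries, against 5 (5.38%) in NI, 7 (7.53%) in TNF and 31 (33.33%) in TNFDEX. Over all protein-coding genes the same shares were 36.5% in DEX, 14.9% in NI, 6.08% in TNF and 39.5% in TNFDEX. Counted by site, 4 P450 sites were called in at least 2 NI libraries, 44 in DEX, 7 in TNF and 47 in TNFDEX, where 4.23%, 19.6%, 1.95% and 24% of all 47493 regions were. From NI to DEX, 25 Cyp genes gained such a site and 0 lost it. Gains and losses over all protein-coding genes are not given here, but their share rose from 14.9% to 36.5%. The 25 and 0 are therefore not read as particular to P450 genes. Without DEX 1, DEX 2 or DEX 3 the DEX count was 27, 18 or 20, and a site then had to be called in both DEX libraries left. The low-mitochondrial DEX libraries are DEX 1 and DEX 2, so their count is the same 20. Another 24 Cyp genes had no site in any library. Of these, 23 belong to family 2, mostly drug-metabolising enzymes of the Cyp2c, Cyp2d and Cyp2j clusters, and the other is Cyp11b2, the aldosterone synthase gene. The share of all protein-coding genes with no site in any library is not given here, so the 24 is not read as particular to P450 genes.

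**Figure D2:**
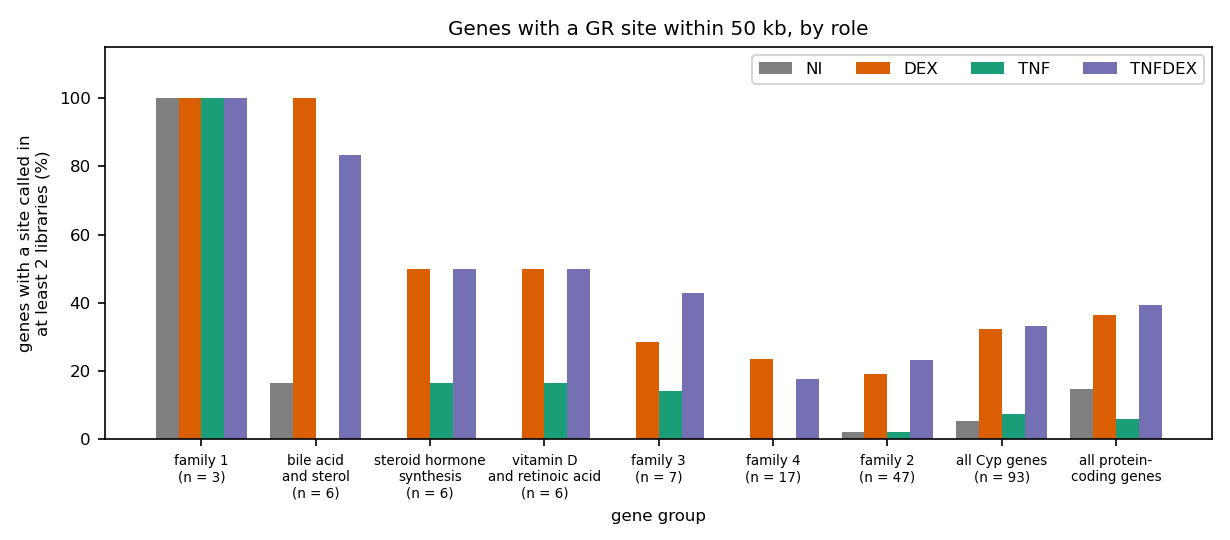
Share of genes (percent) with a GR site within 50 kb called in at least 2 libraries of each group, by P450 role, for all 93 Cyp genes and for all protein-coding genes. One Cyp gene outside these roles is counted only among all Cyp genes. All 6 bile acid and sterol genes have a DEX site, against 9 of 47 genes of family 2 and 36.5% of all protein-coding genes.

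Presence of a peak was compared between the 6 libraries with Dex and the 5 without by Fisher's exact test on every region called in at least 4 of the 11 libraries, two-sided, with Benjamini-Hochberg adjustment over 10213 regions. Of the 47 P450 sites tested, 13 (27.7%) passed with more calls under Dex, where 40.1% of all tested regions did so and 0.0783% passed in the other direction. At equal list lengths (the 2524 strongest peaks of each library) 5 passed, and 7 with no filter on the number of calls; the lists held 2524 to 6502 peaks in NI and 10480 to 13021 in DEX. The 13 sites were linked to 14 of the 93 Cyp genes, where 19.3% of all protein-coding genes had a passing site. At 9 of them a peak was called in 6 of 6 libraries with Dex, and 11 had 0 of 5 calls without it. All 13 also passed in a test stratified by mitochondrial signal and in one stratified by TNF. As many regions of the series, 4093, passed as higher in each of these as without strata. Passing them was therefore set by the call pattern and is no check on mitochondrial signal or TNF. Leaving out any 1 library left 7 to 9 passing, and 7 sites passed every time. The other 6, at Cyp7b1, Cyp24a1, Cyp2a5, the weaker Cyp7a1 site, the Cyp2t4 site at its start and the upstream Cyp2r1 site, each passed in 1 of these 11 fits. Of the 34 tested sites that did not pass, 28 had a peak in at least 1 library without Dex. A tested site with no such peak fails only at 4 of 6 calls with Dex, so this number largely follows from the filter and the test. The Cyp gene was the nearest protein-coding gene at 6 of the 13 sites, and only 1 of them lay inside a Cyp gene.

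**Figure D3:**
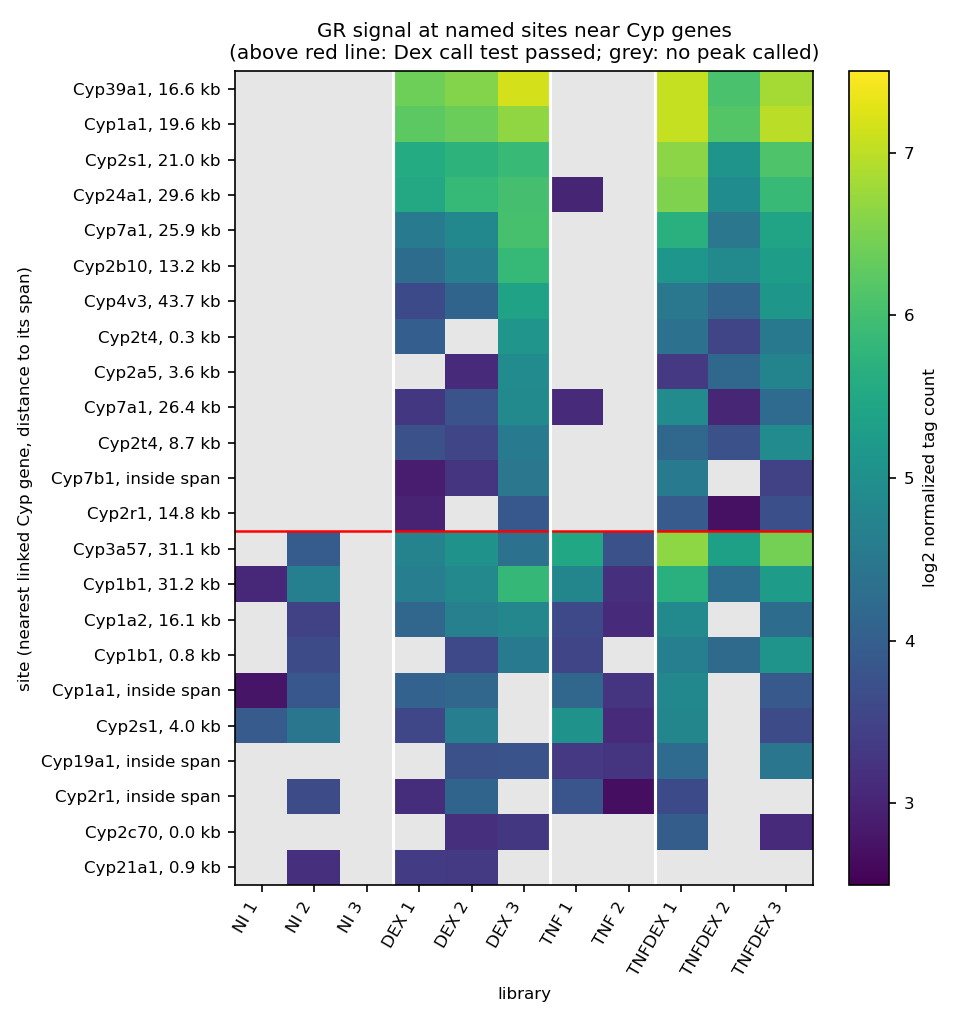
Normalized tag count (log2 colour scale) at the 23 named sites near Cyp genes (rows, with the linked gene and the distance to its span) in 11 libraries (columns). Grey marks a library with no peak called. The 13 sites above the red line passed the Dex call test, and NI 3 is grey in every row.

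All 6 genes of bile acid and sterol metabolism had a site in at least 2 DEX libraries and 5 had one in TNFDEX. In NI 1 had one and in TNF 0. Over all protein-coding genes the shares were 36.5%, 39.5%, 14.9% and 6.08% in that order. Of 9 tested sites 4 passed the Dex call test, close to the 40.1% of all tested regions, and 2 of the 4 were neighbouring sites at Cyp7a1. The strongest P450 site, by its mean over the libraries with Dex, lay 16.6 kb from Cyp39a1, the oxysterol hydroxylase gene, at chr17:43767961-43768148. No peak was called there in any NI or TNF library, and the values were 84.8, 95.3 and 144 in DEX and 134, 66.9 and 113 in TNFDEX. Its mean was 108 ± 31.5 (SD, n = 3) in DEX and 105 ± 34.1 (n = 3) in TNFDEX, and the calls separated all libraries with Dex from all without (Fisher's exact test, adjusted p = 0.0092).

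Cyp7a1 encodes the rate-limiting enzyme of the classic bile acid pathway. It had a pair of neighbouring sites that passed the Dex call test, 25.9 kb and 26.4 kb from the gene, with Ubxn2b as the nearer gene. At chr4:6239578-6239779 the values were 23.3, 28.6 and 66.3 in DEX and 51.0, 22.3 and 42.8 in TNFDEX, with no call in NI or TNF (adjusted p = 0.0092, Fisher's exact test). At chr4:6239141-6239354 they were 9.9, 13.8 and 29.3 in DEX and 30.3, 8.2 and 18.9 in TNFDEX, and TNF 1 held a call of 8.6. That site passed with 6 of 6 calls under Dex and 1 of 5 without (adjusted p = 0.0377, Fisher's exact test), and kept its call only without TNF 1 among the 11 fits with a library left out (otherwise up to 0.117). In both, DEX 3 stood above the other DEX libraries, and DEX 3 is the DEX library with high mitochondrial signal; its part in the level was not tested.

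Cyp7b1, which encodes the oxysterol hydroxylase of the alternative pathway, carried the only passing site inside a Cyp gene, at chr3:18125919-18126134. The DEX values were 7.4, 9.7 and 22.4, and TNFDEX 1 and TNFDEX 3 had 23.2 and 11.1. These are low values, and TNFDEX 2 had no call. With 5 of 6 calls under Dex and 0 of 5 without, the site passed at an adjusted p of 0.0377 by Fisher's exact test, which it kept only without TNFDEX 2 among the 11 fits with a library left out (otherwise up to 0.118), and which was 0.176 with no filter on calls. Cyp8b1, the sterol 12α-hydroxylase gene (named after its values were seen), had 1 of the 4 P450 sites called in at least 2 NI libraries, at chr9:121952697-121952900 inside Gask1a and 36.5 kb from Cyp8b1. It had 14.4 and 17.9 in NI 1 and NI 2, and of the DEX libraries only DEX 2 held a call, at 18.9.

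Family 1, whose members Cyp1a1, Cyp1a2 and Cyp1b1 are the classic targets of the aryl hydrocarbon receptor, had sites in every group. All 3 genes had a site in at least 2 libraries of NI, of DEX, of TNF and of TNFDEX. The shares over all protein-coding genes were 14.9%, 36.5%, 6.08% and 39.5%. Cyp1a1 and Cyp1a2 are neighbours that share all of their sites, so these are 2 loci. Of 7 tested sites here 1 passed the Dex call test, where 40.1% of all tested regions did. It lay inside Edc3 and 19.6 kb from Cyp1a1, at chr9:57723347-57723526. Its values were 75.9, 83.6 and 102 in DEX (mean 87.2 ± 13.5, SD, n = 3) and 133, 72.0 and 127 in TNFDEX (111 ± 33.6, n = 3), with no call in NI or TNF (Fisher's exact test, adjusted p = 0.0092). It stood 41.94-fold to 77.17-fold over the input by the authors' own ratio.

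Other family 1 sites were called without Dex. Upstream of Cyp1b1 by 31.2 kb, at chr17:79746169-79746433, the values were 8.4 and 25.1 in NI 1 and NI 2, 24.8, 29.1 and 56.9 in DEX, 27.9 and 9.2 in TNF, and 51.0, 19.9 and 38.6 in TNFDEX. NI 2 exceeded DEX 1 here, so the groups overlapped, and the calls did not pass (adjusted p = 0.604, Fisher's exact test). Closer to Cyp1b1, 0.8 kb upstream of its start at chr17:79715689-79716057, NI 2 had 12.6, DEX 2 and DEX 3 had 12.2 and 23.3, TNF 1 had 11.7, and TNFDEX had 25.3, 18.8 and 34.1. DEX 3 lay within the range of TNFDEX, and the calls did not pass the Dex call test (adjusted p = 0.335, Fisher's exact test).

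Inside the Cyp1a1 span, at chr9:57688642-57688925, 4 of 6 libraries with Dex and 4 of 5 without held a peak. The values were 6.9 and 14.5 in NI 1 and NI 2, 16.9 and 17.8 in DEX 1 and DEX 2, 17.7 and 9.6 in TNF, and 28.6 and 14.8 in TNFDEX 1 and TNFDEX 3. Between Cyp1a2 and Csk, 16.1 kb from Cyp1a2 at chr9:57660673-57660943, NI 2 had 11.1, DEX had 17.8, 25.5 and 28.0, TNF had 12.2 and 8.7, and TNFDEX 1 and TNFDEX 3 had 29.9 and 19.3. All 5 values with Dex exceeded the 3 values without it at this site. The absence of a value in NI 1, NI 3 and TNFDEX 2 keeps this from being a comparison of all libraries.

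Family 2 is the largest, with 47 genes after Cyp2r1 was set with the vitamin D genes, and holds many drug-metabolising enzymes. Of these, 9 had a site in at least 2 DEX libraries and 11 in TNFDEX, where 36.5% and 39.5% of all protein-coding genes did. Of 15 tested sites 5 passed the Dex call test, against 40.1% of all tested regions. Cyp2b10, the main CAR-induced drug-metabolising gene of mouse liver, had a passing site 13.2 kb upstream at chr7:25884364-25884554. There the values were 19.3, 25.0 and 57.3 in DEX and 34.8, 29.3 and 39.1 in TNFDEX, with no call in NI or TNF (Fisher's exact test, adjusted p = 0.0092). The authors' ratio to the input was 5.79 to 13.28, lower than at the Cyp1a1 site.

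The strongest family 2 site lay inside Axl, a receptor tyrosine kinase gene, 21.0 kb from Cyp2s1 at chr7:25781352-25781536. It had 47.6, 53.5 and 59.0 in DEX (53.4 ± 5.70, SD, n = 3) and 98.7, 34.0 and 69.9 in TNFDEX (67.5 ± 32.4, n = 3), and no call without Dex (adjusted p = 0.0092, Fisher's exact test). Also linked to Cyp2s1, 4.0 kb from its span at chr7:25798322-25798537, was a site called in 4 of 6 libraries with Dex and 4 of 5 without. That site had 15.3 and 22.2 in NI 1 and NI 2, 11.9 and 25.0 in DEX 1 and DEX 2, 33.0 and 8.7 in TNF, and 27.8 and 12.7 in TNFDEX 1 and TNFDEX 3. The groups overlapped there, so neighbouring sites of 1 gene differed in whether they were called without Dex.

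The other 3 passing sites of family 2 were weaker than those at Axl and Cyp2b10, by the mean of their called values with Dex. Upstream of the Cyp2t4 start by 0.3 kb, at chr7:27153272-27153481 and reaching into the printed promoter, DEX 1 and DEX 3 had 15.9 and 34.5, and TNFDEX had 20.7, 11.7 and 23.0. A further site 8.7 kb from Cyp2t4, beside Egln2 at chr7:27167148-27167347, had 13.4, 11.7 and 23.3 in DEX and 18.2, 13.3 and 30.0 in TNFDEX. Cyp2a5, the coumarin hydroxylase gene, had a site 3.6 kb upstream at chr7:26831688-26831869, with 8.7 and 30.2 in DEX 2 and DEX 3 and 10.0, 18.0 and 27.1 in TNFDEX. All 3 sites had no call in the 5 libraries without Dex and passed the Dex call test, though the Cyp2a5 site and the Cyp2t4 site at its start passed only without DEX 1 and only without DEX 2, respectively, among the 11 fits with a library left out. Both Cyp2t4 sites also lay within 50 kb of Cyp2f2, and the Cyp2a5 site within 50 kb of Cyp2g1, so their gene is not settled by distance alone.

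At the Cyp2c70 promoter printed above, the GR region chr19:40187211-40187458 was centred 48 bp before the start. Cyp2c70 makes muricholic acids, bile acids typical of mice. DEX 2 and DEX 3 had 9.2 and 9.9, and TNFDEX 1 and TNFDEX 3 had 15.8 and 8.6, with no call in the 5 libraries without Dex. With 4 of 6 calls against 0 of 5 it did not pass (adjusted p = 0.104, Fisher's exact test).

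In family 3, which holds the mouse counterparts of the main human drug-metabolising P450, 2 of 7 genes had a site in at least 2 DEX libraries and 3 in TNFDEX. The shares over all protein-coding genes were 36.5% and 39.5%. None of the 4 tested sites passed the Dex call test, which 40.1% of all tested regions did. The strongest lay 31.1 kb upstream of Cyp3a57 at chr5:145313911-145314136, with Zscan25 as the nearer gene. NI 2 had 15.5, DEX had 26.8, 33.1 and 20.7, TNF had 44.6 and 13.3, and TNFDEX had 101, 40.3 and 88.0. The 3 TNFDEX values exceeded the 3 DEX values, and the 2 TNF values lay on either side of DEX. At the Cyp3a13 promoter printed above, a site chosen for display after its values were seen, at chr5:137921475-137921723, had 13.9 and 16.8 in DEX 1 and DEX 2, 18.2 in TNF 1 and 18.7 in TNFDEX 1. All 4 of these libraries have low mitochondrial signal, and the site was not called in any of the high ones; the part of that split in the calls was not tested.

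Among the 17 fatty acid hydroxylases and related genes of family 4, 4 had a site in at least 2 DEX libraries. In TNFDEX 3 had one. Over all protein-coding genes 36.5% and 39.5% did. Of 3 tested sites 1 passed the Dex call test, against 40.1% of all tested regions. The 1 passing site, at chr8:45261973-45262168, was linked to Cyp4v3, a fatty acid ω-hydroxylase gene, at 43.7 kb, but it lay 15 bp from the end of the F11 span, at the F11 start shown above. It had 12.4, 17.3 and 41.4 in DEX and 22.8, 17.6 and 35.4 in TNFDEX, and no call without Dex (adjusted p = 0.0092, Fisher's exact test).

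A site 11.7 kb from Cyp4b1 (named after its values were seen), at chr4:115659284-115659515, had 18.4 in NI 2, 37.7, 44.4 and 56.4 in DEX, 31.4 in TNF 1, and 73.8, 30.5 and 47.7 in TNFDEX. It was the strongest family 4 site, and with 6 of 6 calls under Dex and 2 of 5 without it did not pass (adjusted p = 0.104, Fisher's exact test).

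Of the 6 steroid hormone genes, 3 had a site in at least 2 DEX libraries, against 36.5% of all protein-coding genes. The Dex call test was passed by 0 of 3 tested sites, against 40.1% of all tested regions. Cyp19a1, the aromatase gene, had a site inside its span at chr9:54264917-54265143 with 13.3 and 13.8 in DEX 2 and DEX 3, 10.1 and 9.6 in TNF, and 19.1 and 22.2 in TNFDEX 1 and TNFDEX 3. The called values with Dex lay above those of TNF there, and no NI library held a call. DEX 1 and TNFDEX 2 had no call either, so this is not a comparison of all libraries. Cyp21a1, the 21-hydroxylase gene, had a weak site 0.9 kb from its span at chr17:34805191-34805423, with 9.2 in NI 2 and 10.4 and 10.2 in DEX 1 and DEX 2.

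Among the 6 vitamin D and retinoic acid genes, 3 had a site in at least 2 DEX libraries, against 36.5% of all protein-coding genes. Of 6 tested sites 2 passed, against 40.1% of all tested regions. Cyp24a1 encodes the enzyme that degrades active vitamin D. Its passing site, 29.6 kb away and nearer to Pfdn4, at chr2:170526660-170526850, had 45.6, 57.6 and 65.1 in DEX and 92.5, 30.5 and 58.8 in TNFDEX. TNF 1 held a call of 8.1, below every value with Dex, and the calls passed at an adjusted p of 0.0377 (Fisher's exact test). The call was kept only without TNF 1 among the 11 fits with a library left out (otherwise up to 0.117), and the p was 0.176 with no filter on calls. Cyp2r1 encodes the vitamin D 25-hydroxylase. Upstream by 14.8 kb, at chr7:114577685-114577952, it had 7.9 and 14.6 in DEX 1 and DEX 3 and 15.3, 6.6 and 13.2 in TNFDEX, with no call without Dex, and the site passed (adjusted p = 0.0377, Fisher's exact test), but with a library left out only without DEX 2 (otherwise up to 0.118). At the Cyp2r1 start, at chr7:114562719-114562937, 3 of 6 libraries with Dex and 3 of 5 without held a call, with 12.6 in NI 2, 8.9 and 17.3 in DEX 1 and DEX 2, 14.2 and 6.4 in TNF, and 12.4 in TNFDEX 1.

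The sites were unevenly spread over the 44 loci into which the 50 kb neighbourhoods of the 93 genes merge. At 24 loci a site was called in at least 2 DEX libraries. All neighbourhoods together span 8.75 Mb and held 5.03 DEX regions per Mb, against 4.06 per Mb over the neighbourhoods of all protein-coding genes. The 6 loci with at least 5 Cyp genes, a split chosen after seeing the data, hold 37 genes and 2.725 Mb, and had 1.47 DEX regions per Mb and no DEX site at 4 of them. The 38 smaller loci had 6.64 per Mb and no DEX site at 16. The densest was the Cyp1a1 and Cyp1a2 locus, at 31.5 per Mb, while the Cyp2c29 to Cyp2c69 cluster of 7 genes over 699.7 kb had no site in any library. How the authors treated reads that match several of the near-identical genes in such clusters is not given in the sources used here.

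**Figure D4:**
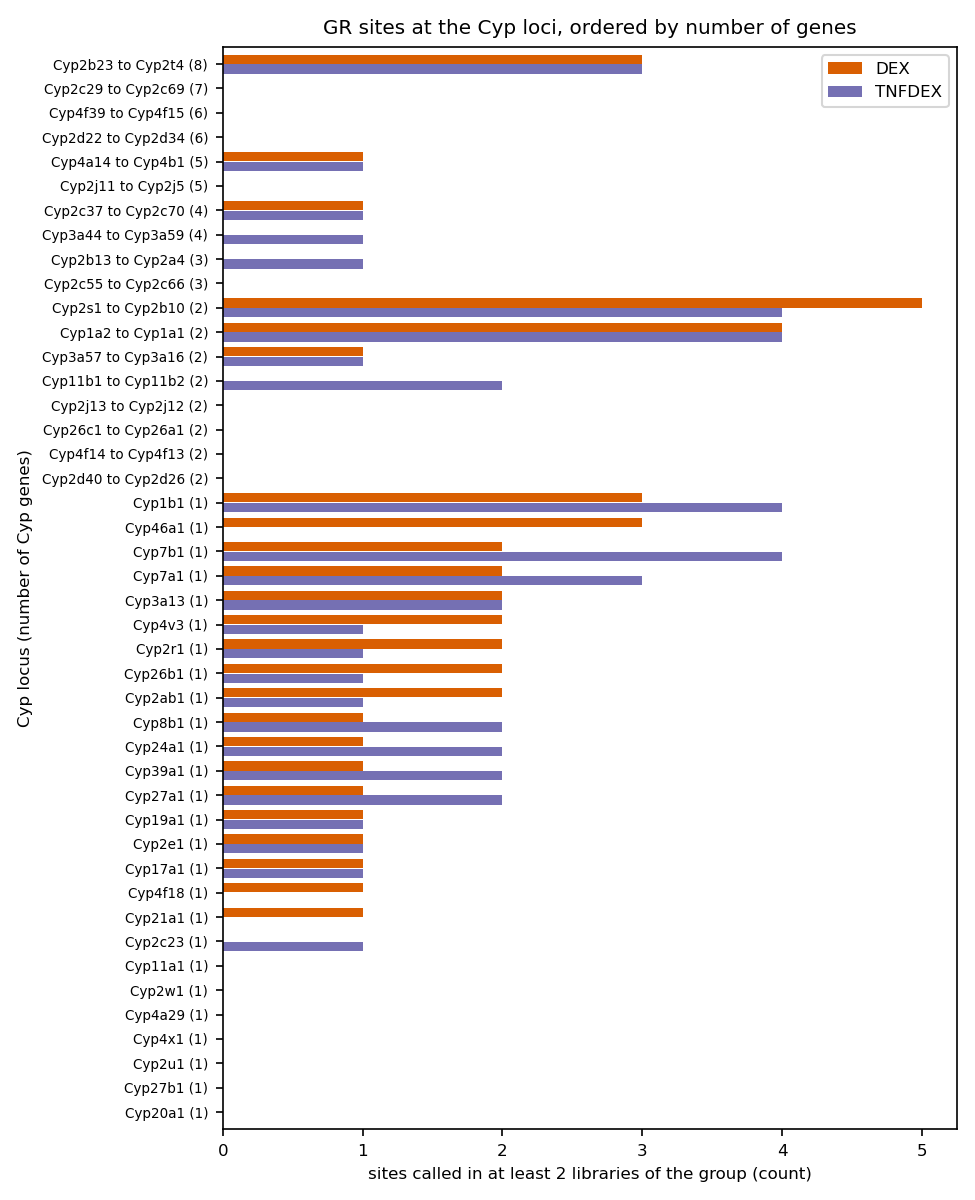
Number of GR sites called in at least 2 libraries of DEX or of TNFDEX at each of the 44 Cyp loci, ordered by the number of Cyp genes in the locus (in brackets). Of the 6 largest loci, 4 have no DEX site, and the Cyp2s1 to Cyp2b10 locus has 5.

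Most Cyp genes with a DEX site also had one when TNF was given before Dex. In both DEX and TNFDEX, 27 genes had a site in at least 2 libraries, 3 had one in DEX alone (Cyp46a1, Cyp21a1 and Cyp4f18) and 4 in TNFDEX alone (Cyp11b1, Cyp2a4, Cyp2c23 and Cyp3a44). These 7 genes are named because they complete the count. The 30 sites shared were 68.18% of the 44 DEX sites and 63.83% of the 47 TNFDEX sites, against 80.13% and 65.30% over all regions. The shared genes were 90.00% of the Cyp genes with a DEX site and 87.10% of those with a TNFDEX site, against 84.44% and 78.20% over all protein-coding genes. Presence of a peak was also compared between the 5 libraries with TNF and the 6 without by Fisher's exact test. Of 10213 regions 0 passed, and 0 P450 sites did. At an unadjusted p under 0.05 there were 27 regions and 0 P450 sites, the lowest P450 p being 0.0801. With so few libraries this does not show that TNF left the calls unchanged. A site called only in the 3 TNFDEX libraries had too few calls to be tested. One such site, named after its values were seen, lay 45.7 kb from Cyp1b1, with 12.4, 10.6 and 11.5 in TNFDEX.

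Signal was compared with limma on log2 normalized tag counts over regions called in every library of both groups, after scaling by a trimmed mean of M values. The raw values differed by a median of 0.137 on the log2 scale between TNFDEX and DEX before that scaling. Of 4023 regions, 13 lay near Cyp genes, and 0 of these passed, where 0.0497% of all regions passed as higher and 0 as lower. At an unadjusted p under 0.05 there was 1 P450 site, against 270 of all regions. The median difference was 0.02 over the 13 P450 sites, with 7 above 0, and -0.02 over all regions. At 1 P450 site, that of Cyp3a57, all TNFDEX values exceeded all DEX values, as they did at 2.59% of all regions; at 0 P450 sites and 0.124% of all regions all TNFDEX values were lower.

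The Cyp3a57 site had 26.9 ± 6.20 (SD, n = 3) in DEX and 76.4 ± 31.9 (n = 3) in TNFDEX, a log2 difference of 1.28 (SE 0.31) with an adjusted p of 0.392 by limma. Within the libraries of low mitochondrial signal it had 26.8 and 33.1 in DEX against 101 in TNFDEX, and within the high ones 20.7 against 40.3 and 88.0. With that split as a term in the fit, the difference was 1.45 with an adjusted p of 0.00228 by limma, where 1.47% of the 4023 regions passed as higher and 0.0497% as lower. Against TNF alone the difference was 0.89 (SE 0.31, adjusted p = 0.0786 by limma over 508 regions, of which 12% passed as higher and 1.38% as lower). It was 0.87 with an adjusted p of 0.00587 by limma with the same term, under which 20.1% of the 508 regions passed as higher and 14.4% as lower. Without TNF 2 it was 0.14, with TNF 1, at 44.6, as the only TNF library. Both comparisons use the same TNFDEX libraries. At Cyp1b1, the other P450 site tested against TNF, the difference was 0.43 (SE 0.30, adjusted p = 0.343 by limma). Before scaling, the raw values of TNFDEX exceeded those of TNF by a median of 0.562 on the log2 scale.

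**Figure D5:**
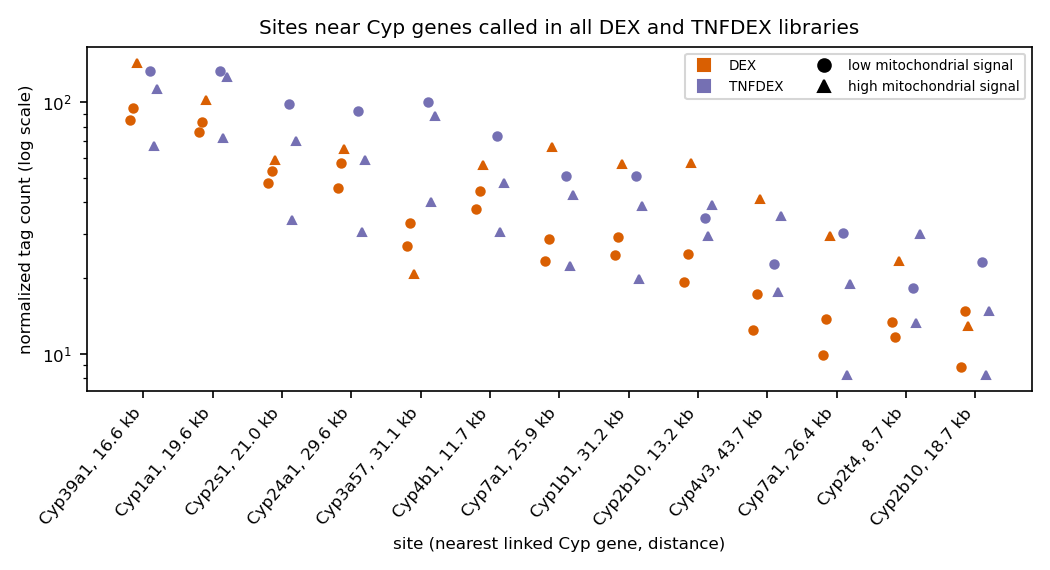
Normalized tag count (log axis) in each DEX and TNFDEX library at the 13 sites near Cyp genes called in all 6 of these libraries. Circles are libraries with low and triangles with high mitochondrial signal. The Cyp3a57 site is the one where all 3 TNFDEX values lie above all 3 DEX values.

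At Cyp39a1, whose site was the strongest, TNFDEX and DEX differed by -0.22 (SE 0.19, adjusted p = 0.831 by limma) on the log2 scale, and at the Cyp1a1 site by 0.15 (SE 0.20, adjusted p = 0.894). At the stronger Cyp7a1 site the difference was -0.11 (SE 0.28, adjusted p = 0.959 by limma), and at Cyp2b10 it was 0.02 (SE 0.34, adjusted p = 0.998). These differences are smaller than or close to their standard errors, which does not show that the levels were equal. No P450 site was called in every library of NI and DEX or of NI and TNF, so the signal test on regions called throughout gave no value for Dex alone, TNF alone or the Dex by TNF interaction near these genes. With regions called in at least 2 libraries of each group, 3 P450 sites could be tested, those of Cyp1b1 at 31.2 kb, Cyp2s1 at 4.0 kb and Cyp1a1 inside its span, with libraries that had no call left out. For DEX against NI 0 of the 3 passed, where 8.79% of 1502 regions passed as higher and 0.666% as lower. The log2 differences were 0.84 (SE 0.43) at Cyp1b1, -0.54 (SE 0.31) at Cyp2s1 and 0.35 (SE 0.31) at Cyp1a1, with adjusted p-values by limma of 0.27, 0.324 and 0.516. These are values after scaling. Before it, DEX exceeded NI by a median of 0.76 on the log2 scale over regions called in every library of both groups. Each difference is therefore relative to that general shift, and the negative value at Cyp2s1 does not show a fall in the raw signal. For TNF against NI 0 of the 3 and 0 of 587 regions passed (adjusted p = 0.998 at each by limma), with 17 regions and 0 P450 sites at an unadjusted p under 0.05. For the interaction, a fit added after seeing the data, 0 of the 3 and 0 of 506 regions passed (adjusted p = 0.989 at each by limma), with 2 regions and 0 P450 sites at an unadjusted p under 0.05.

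By calls, 11 P450 sites were called in all 3 DEX and no NI library, where 8.03% of all 47493 regions were. With the low-mitochondrial libraries alone there were 15. Under this rule fewer libraries can only keep or raise the count, so the 15 is no check on the mitochondrial split.

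Among all regions called in every library with Dex, P450 sites spread from 13.8 to 106.25 in their mean value. The 13 such sites had a median of 39.05 for that mean over the 6 libraries, against 31.75 over 4023 regions. Of the 13, 3 lay in the lowest quartile of all these regions, at or under 21.3, and 4 in the highest, above 52.5. Above the value of 106.25 at Cyp39a1 stood 8.43% of all these regions.

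The genes that work with P450 enzymes were counted in the same way, beside 36.5% of all protein-coding genes with a site in at least 2 DEX libraries and 19.3% with a passing one. The marker lists of 3 cell types had passing sites at 7 of 7, 4 of 4 and 3 of 4 genes, so nothing particular to P450 partners is read from their counts. Of 8 redox partners, 5 had a site in at least 2 DEX libraries and 4 had one that passed the Dex call test. Por, the reductase that passes electrons to microsomal P450s, had 35.7, 33.6 and 111 in DEX and 56.0, 73.9 and 144 in TNFDEX at its strongest passing site, 29.4 kb away, and no call without Dex. Cyb5b, a cytochrome b5 gene, had 236, 294 and 433 in DEX and 365, 182 and 380 in TNFDEX, above every P450 site in every library with Dex. Of 8 haem synthesis genes, 5 had a DEX site and 4 a passing one; Cpox had 67.9, 82.6 and 91.3 in DEX and 127, 34.8 and 70.3 in TNFDEX, with no call without Dex.

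Of 17 receptors and regulators of P450 genes, 13 had a site in at least 2 DEX libraries, 4 in NI, 2 in TNF and 12 in TNFDEX, and 11 had a site that passed as higher with Dex. None had one that passed as lower. Over all protein-coding genes the shares were 36.5% in DEX, 14.9% in NI, 6.08% in TNF and 39.5% in TNFDEX. Ahr, the receptor that drives family 1, had 108, 126 and 265 in DEX and 251, 119 and 224 in TNFDEX at a site inside the gene that had no call without Dex. Nr1i3, which encodes CAR, had 26.3, 26.5 and 29.3 in DEX and 36.5, 23.5 and 44.0 in TNFDEX at a site 21.3 kb away, which also counts for the haem gene Ppox. Nr1i2, which encodes PXR, had 3 sites, none of which passed.

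Ppara and Dbp were singled out after their values were seen. Ppara encodes a fatty acid sensor that drives Cyp4a genes. At a site inside the gene it had 52.5, 76.5 and 128 in DEX and 281, 214 and 354 in TNFDEX, with no call in NI or TNF. All TNFDEX values exceeded all DEX values there, by 1.64 on the log2 scale (SE 0.26, adjusted p = 0.0715 by limma). Dbp, a clock output factor that acts on several Cyp genes, had 33.2, 46.9 and 50.0 in DEX and 94.1, 70.0 and 119 in TNFDEX, a log2 difference of 0.96 (SE 0.25, adjusted p = 0.438 by limma). With the mitochondrial term both passed, at an adjusted p of 5.66e-05 for Ppara and 0.0369 for Dbp by limma. Under that term 1.47% of all regions passed as higher. At the strongest passing sites of the other 5 regulators called in all 6 libraries with Dex, the differences without the term lay between -0.25 at Tef and 0.15 at Ahr. The stromal marker Dcn differed by 1.96 (SE 0.33, adjusted p = 0.0798 by limma, 0.000704 with the term), so a difference of this size was not confined to regulators of P450 genes.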

How the data were processed

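GR chromatin immunoprecipitation was compared over 11 libraries, grouped by their titles. The submitters' processing notes name HOMER 4.6, Bowtie 1.0.0, CASAVA 1.8 and mm10, and how duplicate and multiply mapping reads were treated is not given in the sources used here. HOMER called the peaks of each library on its own against 1 input library, per the file headers, with a Poisson p of 0.0001, a false discovery rate of 0.001 and a 4-fold excess over both the input and the 10000 bp around the peak. The deposited signal is the authors' normalized tag count per 20000000 tags, and the deposited ratio is their fold over the input, used only to describe and filter peaks. Weak peaks rest on few tags, so a missing call is poor evidence of no binding.

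Peaks sharing at least 1 bp were merged. Gene spans came from a GRCm38.p6 table, which has mm10 coordinates and no exons, so exons and introns were not separated. A region was compared by its calls (Fisher's exact test on regions called in at least 4 of 11 libraries) and by its level (limma 3.58.1 in R 4.3.3 with trend and TMM scaling, on regions called in every library compared, no pseudocount). Both used Benjamini-Hochberg adjustment at 0.05 over all regions tested, and both were tested on simulated data. Python 3.11.15 was used. Replicates are biological according to the series' design text.

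Sites named with values in every library were those that passed either test, those called in all 3 NI or both TNF libraries, and those called in at least 2 libraries of a group within 1 kb of a gene end. The members and gene lists were chosen with earlier results of these data known. Same-numbered libraries of NI and DEX had correlations of 0.517, 0.54 and 0.678 over 179 regions, none near a Cyp gene. Differently numbered ones also deviated together, with 0.486 for NI 1 with DEX 2 and 0.374 for NI 2 with DEX 1. Same-numbered libraries of DEX and TNFDEX had 0.372, -0.367 and 0.575, and DEX 2 with TNFDEX 1 had 0.548. In both sets the sign was positive within a mitochondrial class and negative across the 2 classes. The numbers were therefore not taken to pair the libraries. Alternatives were other merging, distances, peak thresholds, equal list lengths, filters, scaling, a replicate block, a mitochondrial term and leaving out each library. The tests stratified by mitochondrial signal or TNF, and the counts in low-mitochondrial libraries, were added after seeing the data. The interaction over regions called in at least 2 libraries of each group was added likewise. Sequences came only from a RefSeq table of promoters; sequence under other sites was not used here.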

Additional observations from a re-analysis of the deposited data

How the results depend on the processing

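The 13 sites passing the Dex call test became 5 with the 2524 strongest peaks of each library, 4 within 10 kb and 7 with no filter on the number of calls, and 7 to 9 without any 1 library. Fewer libraries leave a smaller range of exact p-values, so the sites with fewer than 6 calls under Dex, or with 1 without it, were the ones lost, each in 10 of 11 such fits. Within 100 kb there were 19, with tag counts of at least 10 there were 9, and with at least 8-fold over the input there were 11. Over all regions, the 4093 passing as higher became 1238 with equal list lengths, 2403 with no filter and 2406 to 2935 without 1 library. With tag counts of at least 10 they became 3514, and with at least 8-fold over the input 2954. The 11 sites called in all DEX and no NI libraries became 4 with equal list lengths, 2 within 10 kb and 18 within 100 kb. They became 11 to 22 without 1 library (22 without DEX 1), but leaving out a library can only keep or raise this count. The 30 genes with a DEX site became 11 with equal list lengths and 14 within 10 kb, and 18 to 30 without 1 library. The 31 genes with a TNFDEX site became 11 and 15 under these settings, and 21 to 31 without 1 library. The TNF call test gave 0 P450 sites in all of these settings, which with so few libraries does not show that the calls were unchanged. For TNFDEX against DEX, limma gave 0 P450 sites in every setting tried except the replicate block and the mitochondrial term, each with 1, Cyp3a57. With the replicate block its adjusted p was 0.0141. The numbers do not pair these libraries, and the block changed no call against TNF. For TNFDEX against TNF the 0 became 1 with the mitochondrial term, and 0 to 1 without 1 library: 1 without TNF 2 (Cyp24a1, with an adjusted p of 0.000672 among 10 P450 sites tested, the lone TNF library being assumed to vary like TNFDEX), and 1 without TNFDEX 1, where Cyp3a57 passed with an adjusted p of 0.0486. Where not stated, the cause was not tested. For DEX against NI and TNF against NI, no P450 site could be tested in the main comparison or in most alternatives, the replicate block included; at least 2 libraries of each group gave 3 tested and 0 passing in each. The Dex by TNF interaction had no P450 site among regions called in all 11 libraries, and 3 tested and 0 passing with at least 2 libraries of each group. No value that passed a test turned direction in these settings.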
